A study of Rattus norvegicus with 15 samples.

Results

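Epithelial ion and water transport was followed through 10 genes named for this purpose: the chloride channel Cftr, the sodium-proton exchangers Slc9a2 and Slc9a3, the anion exchangers Slc26a3 and Slc26a6, the basolateral cotransporters Slc12a2 and Slc4a4, and the water channels Aqp1, Aqp7 and Aqp8. Every probe outside the controls whose gene name in the array files was one of these symbols was taken, and each probe was read apart. Of the 10 genes, 9 had such a probe, with 11 probes of the 41012 on the array (17338 genes are named there), and no probe carried the name Slc26a6. All 11 probes were well above background on all 15 arrays and were among the 27891 probes tested.

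The arrays hold total RNA of whole intestinal wall from 15 male rats, with 5 rats to a group and a separate array for every rat. GK-S-30 rats were Goto-Kakizaki (GK) rats, an inbred nonobese strain that develops type 2 diabetes, which at 16 wk of age underwent Roux-en-Y gastric bypass (RYGB) with a Roux limb (RL) of 30 cm, the piece of jejunum joined to the stomach pouch. GK-Sham-PF rats were GK rats sham-operated at the same age. They were pair-fed to the lowest mean intake among the operated groups of the study, usually that of a shorter-RL group without arrays here. Wistar rats were nondiabetic, unoperated and age-matched. Tissue was taken after an overnight fast at 14 wk postoperation, from the RL near its join with the stomach in GK-S-30 rats and from the corresponding length of jejunum in the other groups. GK-S-30 against GK-Sham-PF thus asks about the bypass within the diabetic strain, whereas GK-Sham-PF against Wistar joins strain, diabetes, sham operation and pair-feeding, which cannot be told apart. In the same way, GK-S-30 against Wistar joins strain, diabetes and the bypass operation.

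The jejunum takes up sodium chloride by pairing sodium-proton exchange with chloride-bicarbonate exchange at the brush border, and water follows the salt. It secretes fluid when chloride and bicarbonate, loaded across the basolateral membrane by cotransporters, leave through apical channels, CFTR first among them. The balance of uptake and secretion is set by cAMP, cGMP, calcium and mineralocorticoid signals, and water and glycerol cross through aquaporins.

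Each probe is a 60-base oligonucleotide, and a level is the log2 of its quantile-normalized signal, which is relative and cannot be set against the level of another probe. The probes of 3 genes are shown, 5′ to 3′ and in lower case, because Cftr was read at 2 places and because Aqp7 and Slc26a3 gave the differences that the results turn on.
Cftr probe A_43_P16272: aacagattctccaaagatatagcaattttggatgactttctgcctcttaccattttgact
Cftr probe A_44_P172901: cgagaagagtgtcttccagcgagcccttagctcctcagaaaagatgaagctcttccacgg
Slc26a3 probe A_42_P597626: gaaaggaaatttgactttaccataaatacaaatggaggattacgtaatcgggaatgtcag
Aqp7 probe A_44_P121063: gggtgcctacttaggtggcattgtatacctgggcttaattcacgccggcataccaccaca
By the files' annotation (build rn4), the Cftr probes lie on the plus strand at chr4:43995410-43995470 and chr4:44040004-44040063, 44.6 kb apart, with a GC content of 35.0% and 53.3%. The Slc26a3 probe lies at chr6:49343402-49343461 on the plus strand and the Aqp7 probe at chr5:58433937-58433996 on the minus strand. Exons and UTRs were not assigned.

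A total of 2 arrays were dimmer than the rest. The 75th percentile of the processed signal was 224.61 on the array of Wistar replicate 3 and 224.06 on that of GK-Sham-PF replicate 5, against 329.08 to 384.19 on the other 13 arrays. In other measures they lay within the range of all arrays. On them 69.4% and 71.0% of probes were well above background (66.7% to 74.8% over all arrays), and 77 and 103 spots were outliers (52 to 109). Several transporter probes stood apart on exactly these arrays after normalization, so the differences of the 10 genes are given below with all arrays and, where they moved, without these 2. Enterocyte markers were present in every group: summed over 13 enterocyte probes, the log2 level was 20.12 to 20.29 in GK-S-30, 20.12 to 20.31 in GK-Sham-PF and 20.17 to 20.39 in Wistar rats. No enterocyte probe was called between the GK groups. Against Wistar rats, 2 of the 13 were called lower in GK-S-30 rats, a probe of Lct (−1.24, limma adjusted p = 0.01598) and that of Fabp2 (−0.28, adjusted p = 0.02076). The same Lct probe differed by −1.12 (adjusted p = 0.06132) within the GK strain. The other Lct probe was not called against Wistar rats (−0.94, adjusted p = 0.2387) or within the strain (−1.06, adjusted p = 0.2895). Of all tested probes, 22.8% were called between GK-S-30 and Wistar rats and 6.7% between the GK groups. Smooth muscle markers were higher in GK-S-30 rats (summed log2 level 16.41 to 16.79) than in GK-Sham-PF (14.61 to 15.69) and Wistar rats (14.73 to 15.54), with 5 and 6 of 11 probes called. Both tested ileal probes, Fabp6 and Slc10a2, were called higher in GK-S-30 rats against either group, and 2 (against GK-Sham-PF) and 3 (against Wistar) of 6 T and plasma cell probes were called lower. The part of these shifts in the transport results was not tested. In whole tissue, fewer cells of a type and less RNA per cell cannot be told apart.

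Aqp7 was the only member whose change passed the test on all arrays. A probe is called here where its limma p, after Benjamini-Hochberg adjustment across the tested probes, was under 0.05. For GK-S-30 over Wistar rats 1 of the 11 probes was called, a higher one, against 22.8% of all tested probes (10.9% higher and 11.8% lower). At an unadjusted p under 0.05 there were 4, and the methods' comparison, a one-way model with Tukey's correction, passed 1 (26.5% of all probes). The share of all probes at an unadjusted p under 0.05 was not counted, here or below. For the bypass within the GK strain 0 of 11 were called, against 6.7% of all probes (3.9% higher and 2.8% lower), with 2 of 11 at an unadjusted p under 0.05 and 2 by the methods' comparison (13.9% of all probes). For GK-Sham-PF over Wistar rats 0 of 11 were called, against 7.83% of all probes (3.61% higher and 4.22% lower), with 3 at an unadjusted p under 0.05 and 1 by the methods' comparison (13.5% of all probes). The median log2 difference over the 11 probes was 0.01, 0.11 and 0.03 in the same order, beside −0.03, −0.03 and −0.0012 over all tested probes.

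**Figure D1:**
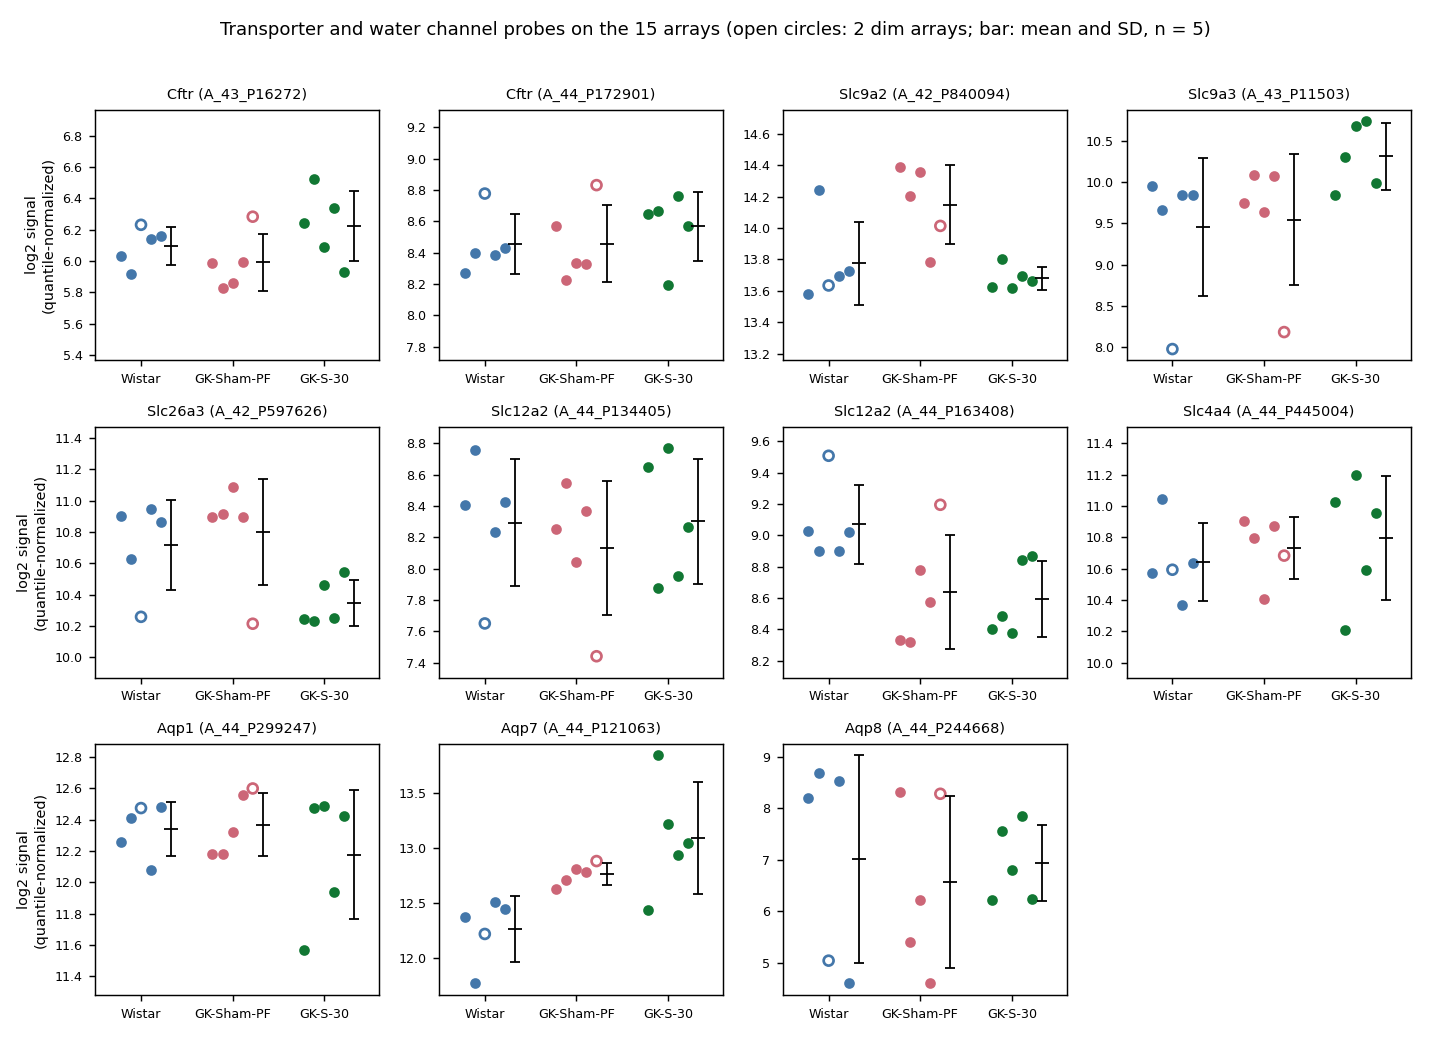
Log2 quantile-normalized signal (vertical axes) of the 11 transporter and water channel probes in the 3 groups of rats, 1 circle per array, with the mean and SD of the 5 arrays as a bar and the 2 dim arrays as open circles. Aqp7 is highest in GK-S-30 rats on average (13.09), Slc26a3 is lowest there (10.35), and both dim arrays lie low for Slc9a3 (7.97 and 8.18).

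The sodium-proton exchangers bring sodium into the enterocyte in exchange for protons. Slc9a3 encodes NHE3, the main brush border exchanger of the small intestine, and its level was 9.95, 9.66, 7.97, 9.85 and 9.84 in Wistar replicates 1 to 5. It was 9.75, 10.09, 9.64, 10.07 and 8.18 in GK-Sham-PF rats and 9.84, 10.31, 10.68, 10.74 and 9.99 in GK-S-30 rats. The groups overlapped, 3 GK-S-30 arrays lay above every other array, and the 2 low values were those of the dim arrays. The log2 difference between GK-S-30 and Wistar rats was 0.86 (SE 0.40, adjusted p = 0.1407), and that between the GK groups 0.77 (SE 0.40, adjusted p = 0.301).

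Without the dim arrays, the Slc9a3 differences were smaller and their errors shrank too. They were then 0.49 (SE 0.18, adjusted p = 0.06328) and 0.42 (SE 0.18, adjusted p = 0.1632), and neither was called. GK-Sham-PF and Wistar rats differed by 0.09 (95% interval −0.76 to 0.95) with all arrays and by 0.06 (−0.35 to 0.48) without the dim ones. The probe had 9 to 10 usable spots per array, and their SD within an array was 0.02 to 0.06.

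Slc9a2 encodes NHE2, a second apical exchanger. Its level was 13.58, 14.24, 13.63, 13.69 and 13.72 in Wistar rats, 14.39, 14.20, 14.36, 13.78 and 14.01 in GK-Sham-PF rats, and 13.63, 13.80, 13.62, 13.69 and 13.66 in GK-S-30 rats. GK-S-30 rats lay close together, with an SD of 0.07 against 0.25 in GK-Sham-PF and 0.27 in Wistar rats, and 4 of 5 GK-Sham-PF arrays were above all of them. From GK-Sham-PF to the bypassed rats the difference was −0.47 (SE 0.14, limma adjusted p = 0.05508), which passed the methods' comparison at 0.05. Without the 2 dim arrays it was −0.50 and was called (adjusted p = 0.04784).

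From Wistar to GK-Sham-PF rats Slc9a2 differed by 0.37 (SE 0.14, limma adjusted p = 0.1329). The difference passed the methods' comparison at 0.05. It was called by limma without Wistar replicate 2, whose 14.24 lay apart from the rest of its group (0.49, adjusted p = 0.0231). GK-S-30 and Wistar rats differed by −0.10 (95% interval −0.39 to 0.20). Arrays shared slides in part, and on the slide that held 2 rats of each GK group the Slc9a2 difference was −0.18. On the slide with 3 GK-Sham-PF rats and 1 Wistar rat, GK-Sham-PF exceeded Wistar by 0.73.

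Slc26a3, the apical chloride-bicarbonate exchanger known as DRA, works beside the sodium-proton exchangers in salt uptake. Its level was 10.90, 10.62, 10.26, 10.95 and 10.86 in Wistar rats, 10.90, 10.91, 11.08, 10.90 and 10.21 in GK-Sham-PF rats, and 10.24, 10.24, 10.46, 10.25 and 10.54 in GK-S-30 rats. All 5 GK-S-30 values were below the 4 higher values of each other group, and the lowest value of each of those groups was its dim array. With all arrays Slc26a3 did not pass limma, at −0.45 (SE 0.16, adjusted p = 0.1183) against GK-Sham-PF and −0.37 (adjusted p = 0.1204) against Wistar rats. It passed the methods' comparison at 0.05 against GK-Sham-PF only.

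Without the dim arrays, Slc26a3 was called lower in GK-S-30 rats in both comparisons. Both are control arrays whose Slc26a3 values lay within or below the GK-S-30 range. Leaving them out therefore had to enlarge the difference, and these calls are not support apart from the uncalled result with all arrays. The log2 difference was −0.60 (SE 0.10, adjusted p = 0.002735) against GK-Sham-PF and −0.49 (SE 0.10, adjusted p = 0.002664) against Wistar rats. Leaving out GK-Sham-PF replicate 5 alone gave −0.60 (adjusted p = 0.0183) and leaving out Wistar replicate 3 alone gave −0.49 (adjusted p = 0.0353) in the matching comparison. GK-Sham-PF and Wistar rats differed by 0.08 with all arrays (95% interval −0.27 to 0.43) and by 0.11 without the dim ones (−0.11 to 0.33). On the shared slide, the 2 GK-S-30 rats differed by −0.32 from the 2 GK-Sham-PF rats, of which 1 was the dim array.

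Without the dim arrays, 2 of the 11 probes were thus called for the bypass within the GK strain, Slc26a3 and Slc9a2, both lower (9.52% of all probes were called there). The same count was 2 for GK-S-30 over Wistar rats, Slc26a3 lower and Aqp7 higher (27.1% of all probes), and 0 for GK-Sham-PF over Wistar rats (9.15%).

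**Figure D2:**
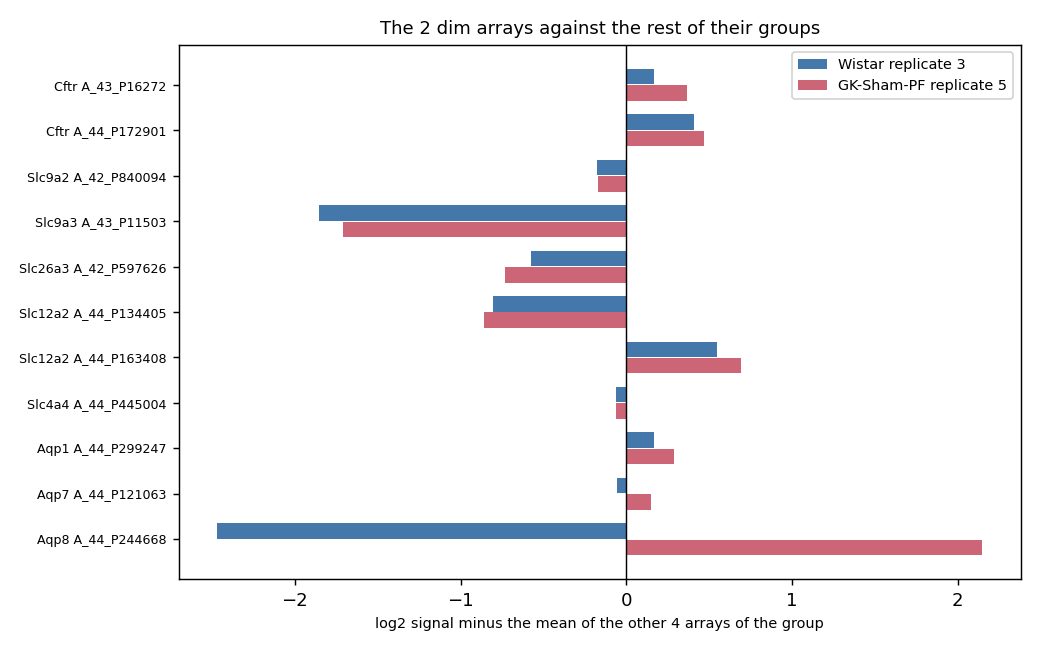
Difference in log2 signal (horizontal axis) between each of the 2 dim arrays and the mean of the other 4 arrays of its group, 1 pair of bars per probe. Slc9a3 was lower by more than 1.7 on both arrays (−1.85 and −1.71), the Slc12a2 probes moved in opposite directions, and Aqp8 moved down on 1 array (−2.47) and up on the other (2.15).

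Cftr encodes the cAMP-gated chloride channel through which the epithelium secretes fluid. Its first probe (A_43_P16272) read 6.03, 5.92, 6.23, 6.14 and 6.16 in Wistar rats, 5.99, 5.83, 5.86, 5.99 and 6.28 in GK-Sham-PF rats, and 6.24, 6.52, 6.09, 6.34 and 5.93 in GK-S-30 rats. The second (A_44_P172901) read 8.27 to 8.78, 8.22 to 8.83 and 8.19 to 8.76 in the same order. The groups overlapped at both probes, and the dim array was the highest of its group in both control groups. GK-S-30 exceeded GK-Sham-PF by 0.23 (95% interval −0.02 to 0.49) and 0.11 (−0.19 to 0.41) at the 2 probes, with adjusted p-values of 0.2967 and 0.7342. With the dim arrays left out these were 0.31 (adjusted p = 0.106) and 0.20 (adjusted p = 0.2877). From Wistar to GK-Sham-PF rats Cftr differed by −0.10 (−0.36 to 0.15) and by 0.0049 (−0.29 to 0.30).

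Slc12a2 encodes NKCC1, the basolateral cotransporter that loads chloride for secretion, and its 2 probes, 39.6 kb apart by the files' annotation, did not give the same pattern. Probe A_44_P163408 read 9.02, 8.90, 9.51, 8.90 and 9.02 in Wistar rats, 8.33, 8.32, 8.78, 8.58 and 9.20 in GK-Sham-PF rats, and 8.40, 8.49, 8.38, 8.85 and 8.87 in GK-S-30 rats. Every Wistar array was above every GK-S-30 array (18% of all tested probes had no overlap between these groups, in either direction), and 4 of 5 GK-Sham-PF arrays were below every Wistar array. The log2 difference was −0.47 (SE 0.18, adjusted p = 0.06565) for GK-S-30 and −0.43 (SE 0.18, adjusted p = 0.1855) for GK-Sham-PF against Wistar rats, so neither was called. Without the dim arrays they were −0.36 (adjusted p = 0.05499) and −0.46 (adjusted p = 0.05681). Leaving out GK-Sham-PF replicate 5 alone brought both under the threshold (adjusted p = 0.0301 and 0.0363).

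Probe A_44_P134405 of Slc12a2 read 7.65 to 8.75 in Wistar, 7.44 to 8.55 in GK-Sham-PF and 7.88 to 8.77 in GK-S-30 rats. Its differences from Wistar were 0.0086 (95% interval −0.50 to 0.52) in GK-S-30 and −0.16 (−0.67 to 0.35) in GK-Sham-PF rats, and both were −0.15 without the dim arrays. The 2 dim arrays were the lowest of their groups at this probe (log2 differences of −0.80 and −0.86 from the mean of the others) and the highest at the other probe (0.55 and 0.69).

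Slc4a4 encodes the basolateral sodium-bicarbonate cotransporter NBCe1, which supplies bicarbonate for secretion. It read 10.36 to 11.05 in Wistar, 10.41 to 10.90 in GK-Sham-PF and 10.21 to 11.20 in GK-S-30 rats, and the 3 ranges overlapped almost wholly. Its difference was 0.06 (95% interval −0.31 to 0.44) between the GK groups and 0.09 (−0.29 to 0.47) from Wistar to GK-Sham-PF rats, and 0.05 and 0.09 without the dim arrays. The dim arrays did not stand apart here (log2 differences of −0.06 from the mean of the others on both).

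Aqp7 is an aquaglyceroporin, which carries glycerol as well as water and is known from adipocytes and from the apical membrane of small intestinal enterocytes. Its level was 12.37, 11.77, 12.22, 12.51 and 12.44 in Wistar rats, 12.62, 12.70, 12.81, 12.78 and 12.88 in GK-Sham-PF rats, and 12.43, 13.84, 13.22, 12.93 and 13.04 in GK-S-30 rats. Every GK-Sham-PF array lay above every Wistar array (8.82% of all tested probes had no overlap between these groups, in either direction), and 4 of 5 GK-S-30 arrays lay above every GK-Sham-PF array. GK-S-30 replicate 1 was within the Wistar range and replicate 2 was the highest of all.

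Aqp7 was 1.78-fold higher in GK-S-30 than in Wistar rats (log2 difference 0.83, SE 0.20, adjusted p = 0.008581). The intermediate steps were 0.50 (SE 0.20, adjusted p = 0.1853) from Wistar to GK-Sham-PF and 0.33 (SE 0.20, adjusted p = 0.3952) from there to the bypassed rats, and neither was called. Without the dim arrays the GK-S-30 to Wistar difference was 0.82 (adjusted p = 0.01846), and leaving out GK-S-30 replicate 2 gave 0.64 (adjusted p = 0.0142). GK-S-30 and Wistar rats shared no slide. A fixed slide block gave 0.64 with an adjusted p of 0.6345, and under it 1.63% of all probes were called. The summed log2 level of adipocyte markers was 12.05 to 13.08 in GK-S-30, 12.44 to 13.76 in GK-Sham-PF and 12.22 to 13.61 in Wistar rats, and the adipokine gene Lep was never above background. Of 4 tested adipocyte probes 0 were called higher and 1 was called lower in GK-S-30 than in Wistar rats, Cidec (−0.95, adjusted p = 0.01095), while Retn differed by 1.65 (adjusted p = 0.1112) and Adipoq by 0.25 (adjusted p = 0.877). Their part in the Aqp7 difference was not tested.

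Aqp1, the water channel of endothelium, erythrocytes and some epithelia, did not differ beyond its spread. It read 12.26, 12.41, 12.47, 12.08 and 12.48 in Wistar rats, 12.18, 12.18, 12.32, 12.56 and 12.60 in GK-Sham-PF rats, and 11.57, 12.47, 12.49, 11.94 and 12.42 in GK-S-30 rats. GK-S-30 rats held the lowest 2 values, and the other 3 lay inside the GK-Sham-PF range. The difference was −0.19 (95% interval −0.56 to 0.17) against GK-Sham-PF and −0.16 (−0.53 to 0.20) against Wistar rats, and −0.13 against either without the dim arrays. Endothelial markers were 11.10 to 11.30 in GK-S-30, 11.09 to 11.63 in GK-Sham-PF and 11.51 to 12.07 in Wistar rats as a summed log2 level, and erythrocyte markers 9.54 to 11.58, 10.12 to 11.33 and 9.22 to 10.35 in the same order. Of 7 endothelial probes, 1 rose and 1 fell from Wistar to GK-S-30 rats, and 1 was called higher within the GK strain. Of 3 erythrocyte probes, Alas2 (1.29, adjusted p = 0.02226) and Slc4a1 (0.81, adjusted p = 0.02665) were called higher in GK-S-30 than in Wistar rats, and Slc4a1 also within the GK strain (0.87, adjusted p = 0.04526). The part of these markers in the Aqp1 values was not tested.

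Aqp8, an apical and intracellular water channel of intestinal epithelium and pancreatic acini, varied far more within groups than between them. It read 8.20, 8.69, 5.04, 8.54 and 4.59 in Wistar rats, 8.31, 5.41, 6.22, 4.61 and 8.28 in GK-Sham-PF rats, and 6.22, 7.56, 6.81, 7.84 and 6.25 in GK-S-30 rats. The SD was 2.02, 1.68 and 0.74, where the median SD of all tested probes was 0.23, 0.24 and 0.22. The SE of a difference was 0.89, with 95% intervals of −1.52 to 2.26 within the GK strain and −1.97 to 1.81 for GK-S-30 against Wistar rats, so differences of several fold in either direction were not detectable. The dim arrays were a low value in Wistar and a high one in GK-Sham-PF rats, and without them the SE was still 0.86 to 0.91. Pancreatic acinar markers had a summed log2 level of 11.92 to 12.34 in GK-S-30, 12.07 to 12.59 in GK-Sham-PF and 11.76 to 12.31 in Wistar rats, and Cpb1 and Pnlip were never above background. Single acinar markers moved apart from that sum: against Wistar rats Amy2 was higher by 4.12 in GK-Sham-PF (adjusted p = 0.0001797) and by 2.34 in GK-S-30 rats (adjusted p = 0.008048), and Prss1 was higher by 2.598 in GK-S-30 rats (adjusted p = 0.004635). Ctrb1 was lower there (−1.06, adjusted p = 0.001591) and within the GK strain (−0.92, adjusted p = 0.01404), as was, against Wistar rats, 1 of 2 Cela1 probes (−1.22, adjusted p = 0.0001724). Their part in the spread of Aqp8 was not tested.

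**Figure D3:**
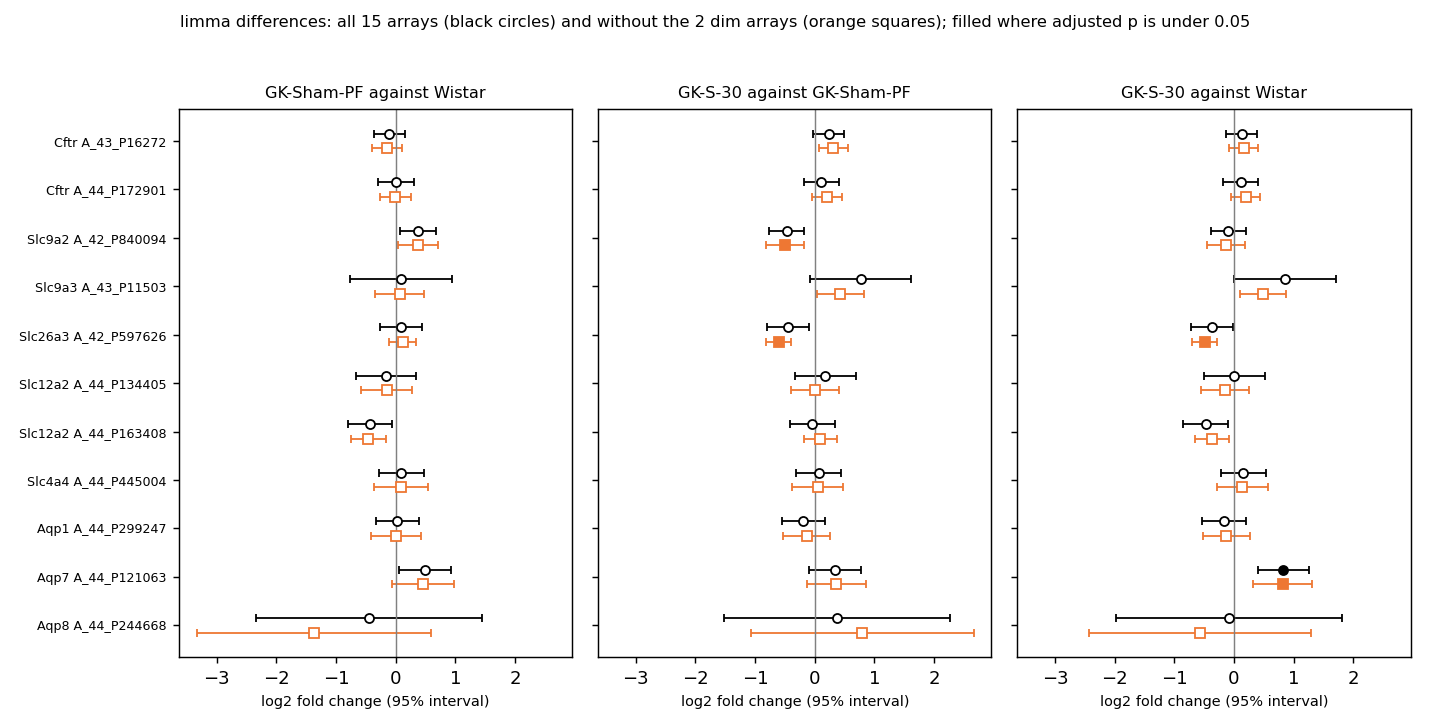
Log2 fold change with its 95% interval (horizontal axes) for each of the 11 probes in the 3 comparisons, with all 15 arrays (black circles) and without the 2 dim arrays (orange squares); symbols are filled where the limma adjusted p was under 0.05. Aqp7 is filled in GK-S-30 against Wistar with all arrays, and Slc26a3 and Slc9a2 are filled only without the dim arrays.

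A wider list of 64 genes that act in the same transport gives the setting of these values. Of these, 63 had a probe and 56 genes, with 71 probes, were tested. For the bypass within the GK strain 6 of 71 probes of 5 genes were called, all higher (8.45%, beside 6.7% of all probes). For GK-Sham-PF over Wistar rats 4 were called, 2 higher and 2 lower (5.63%, beside 7.83%), and for GK-S-30 over Wistar rats 19, with 13 higher and 6 lower (26.8%, beside 22.8%). The median log2 difference over the 71 probes was 0.03, 0.0007 and −0.04. In the same order, 7, 6 and 11 of the 71 probes had no overlap between the arrays of the 2 groups. Of all tested probes, 7.71%, 8.82% and 18% had none. Most genes named below were chosen for a call without overlap, so that trait was set by the choice. Under a fixed slide block 0, 1 and 1 of the 71 probes were called, against 1.37%, 1.49% and 1.63% of all probes, and the single call in each of the last 2 was Aqp3. At an unadjusted p under 0.05, without the slide block, the counts were 21, 11 and 23, with no share of all probes counted to set beside them. With the dim arrays left out, 7, 6 and 17 of the 71 probes were called, beside 9.52%, 9.15% and 27.1% of all probes. Among them were all 6, all 4 and 14 of the 19 called on all arrays.

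Among the 8 tested probes of other aquaporins, that of Aqp3, a basolateral aquaglyceroporin, had the largest difference between GK and Wistar rats. Its level was 8.89, 9.45, 9.73, 8.73 and 8.92 in Wistar rats, 12.64, 12.81, 12.88, 12.76 and 12.88 in GK-Sham-PF rats, and 11.53, 12.59, 12.71, 11.38 and 12.21 in GK-S-30 rats. Every GK array lay above every Wistar array. Aqp3 was 12.5-fold higher in GK-Sham-PF (log2 difference 3.65, SE 0.25, adjusted p = 8.54e-08) and 7.66-fold higher in GK-S-30 (2.94, adjusted p = 8.232e-07) than in Wistar rats, and both remained called with slide as a block (adjusted p = 0.001192 and 0.03637). GK-S-30 differed from GK-Sham-PF by −0.71 (adjusted p = 0.1094). Aqp3 was read by 1 probe.

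ENaC, the epithelial sodium channel, takes up sodium without a partner ion. Scnn1a, its alpha subunit, was higher in the RL of bypassed rats than in sham-operated GK rats at both probes, by 0.53 (adjusted p = 0.01404) and 0.39 (adjusted p = 0.03839). The brighter probe read 7.07 to 7.50 in GK-S-30 rats, above all GK-Sham-PF (6.54 to 6.94) and Wistar arrays (6.32 to 6.76), and the difference from Wistar was 0.69 (adjusted p = 6.101e-04). Scnn1g, the gamma subunit, was well above background on all 5 GK-Sham-PF arrays but on 2 of 5 Wistar and 3 of 5 GK-S-30 arrays. It thus entered the tests only through GK-Sham-PF rats, where it read highest on average. Its fitted difference of 1.20 between GK-Sham-PF and Wistar rats (limma adjusted p = 0.002428) depends on that filter and rests in part on values near background. Among probes well above background on all 15 arrays, 3 of 70 of the wider list were called there, 1 higher and 2 lower. Of all such probes, 1890 of 25166 were called. Scnn1b, the beta subunit, was not called in any of the 3 comparisons (−0.31, adjusted p = 0.1068, between the GK groups).

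Genes of anion transport held 3 of the other 4 calls within the GK strain, Car4, Slc4a7 and Clca1. Car4, the membrane carbonic anhydrase of the brush border, read 15.78, 14.88, 15.14, 15.19 and 15.35 in GK-S-30 rats, all above GK-Sham-PF (14.61 to 14.80) and Wistar rats (14.40 to 14.69). It was higher by 0.58 (adjusted p = 0.01825) and 0.70 (adjusted p = 0.001583) than in the other groups. Slc4a7, the electroneutral sodium-bicarbonate cotransporter NBCn1, read 8.87 to 10.58 in GK-S-30 and 8.33 to 8.77 in GK-Sham-PF rats and was higher by 1.08 (adjusted p = 0.03202). GK-S-30 replicates 1 and 5 read 10.58 and 10.35, and the others 8.87 to 9.37. Wistar rats read 8.40 to 9.31 and overlapped them. Slc4a7 was not called against Wistar rats (0.62, limma adjusted p = 0.1448, without the dim arrays). Clca1, a secreted protein of goblet cells that modulates chloride channels, was higher by 0.73 (adjusted p = 0.01865, overlapping arrays) within the GK strain. It was higher by 1.00 (adjusted p = 6.135e-04) in GK-S-30 than in Wistar rats, where 3 of 4 goblet marker probes, Clca1 among them, were called higher.

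Against Wistar rats, further transporters of this side were called in GK-S-30 rats without overlap, as 18% of all tested probes had between these groups. The basolateral anion exchanger Slc4a2 was higher by 0.64 (adjusted p = 0.01615) and the potassium-chloride cotransporter Slc12a4 by 0.45 (adjusted p = 0.006515). Slc26a4 (pendrin), an anion exchanger, was lower in GK-Sham-PF (−0.61, adjusted p = 0.02875) and in GK-S-30 rats (−0.98, adjusted p = 4.287e-04), whose arrays read 6.64 to 6.97 and 6.00 to 6.62 against 6.99 to 7.94 in Wistar rats. Kcne3, the subunit that keeps the basolateral potassium channel of secreting cells open, was lower in GK-S-30 than in Wistar rats (−1.15, adjusted p = 0.001374), at 10.03 to 11.24 against 11.61 to 12.13.

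Of the signals and scaffolds, P2ry2, a receptor for ATP and UTP that can evoke chloride secretion, was called in all 3 comparisons. It read 6.90, 6.35, 6.43, 6.73 and 7.19 in Wistar rats, 6.03, 6.06, 5.97, 6.14 and 5.98 in GK-Sham-PF rats, and 7.03, 7.43, 7.65, 6.75 and 7.71 in GK-S-30 rats. GK-Sham-PF rats lay below both other groups without overlap, by −0.68 from Wistar (adjusted p = 0.03459), and GK-S-30 exceeded GK-Sham-PF by 1.28 (adjusted p = 8.925e-04). GK-S-30 exceeded Wistar rats by 0.59 (adjusted p = 0.03216), which was not called once the dim arrays were left out (0.52, adjusted p = 0.07173). The first 2 differences have the GK-Sham-PF arrays in common. P2ry4, also on the list, was not called in any comparison. It differed by 0.02 (limma adjusted p = 0.9291) between the GK groups without the dim arrays. Ezr, which ties NHE3 and CFTR to the cytoskeleton, was higher in GK-S-30 than in Wistar rats at 1 of 2 probes (0.33, adjusted p = 0.03927; 0.30, adjusted p = 0.0503, without the dim arrays), as was the exchanger cofactor that the files name Chp, at 1 of 2 probes (0.42, adjusted p = 0.01881). The second probes read 0.09 (adjusted p = 0.6227) and 0.29 (adjusted p = 0.1466).

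**Figure D4:**
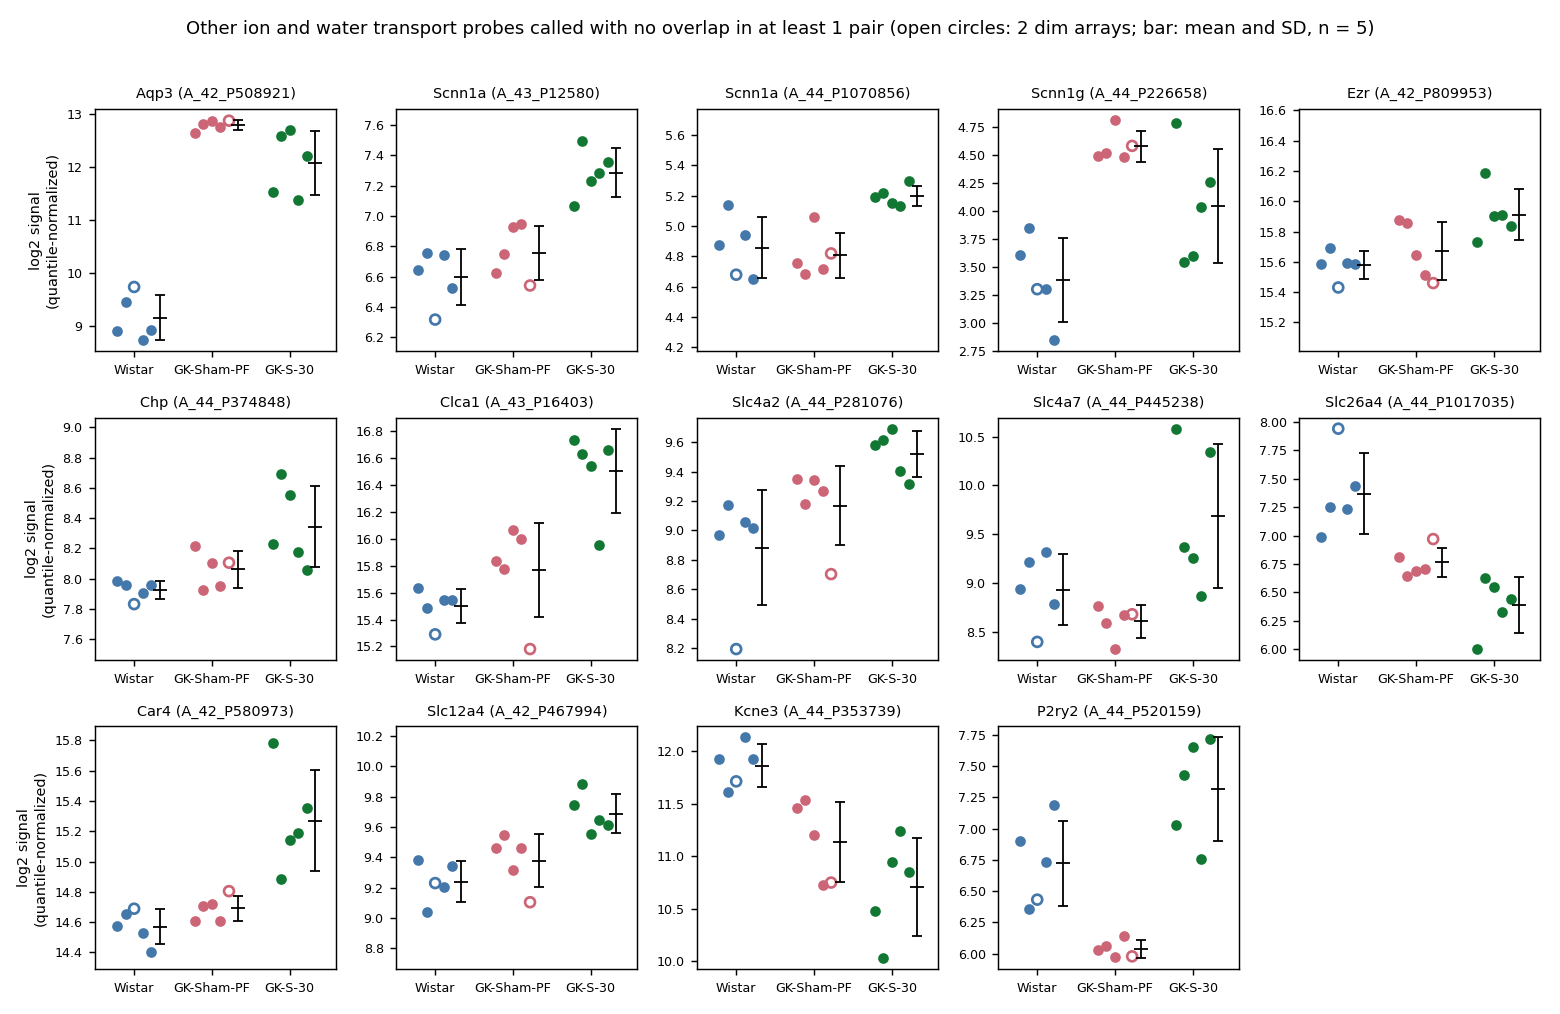
Log2 quantile-normalized signal (vertical axes) of probes of the wider list that were called without overlap in at least 1 pair of groups (1 such probe is not shown), 1 circle per array, with mean and SD of the 5 arrays and the 2 dim arrays as open circles. Aqp3 is at 8.73 to 9.73 in Wistar rats and above 11 in both GK groups, and P2ry2 is lowest in GK-Sham-PF rats (5.97 to 6.14).

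The sodium pump and the guanylin pathway were not called in any comparison. Over 4 tested probes of the pump genes, 0 were called, and Atp1b1, the beta subunit, differed by −0.10 (adjusted p = 0.738) between the GK groups. Guca2a and Guca2b, the genes of guanylin and uroguanylin, gut peptides that raise cGMP, differed there by −0.07 (adjusted p = 0.7129) and 0.14 (adjusted p = 0.6251), and their receptor Gucy2c by 0.22 (adjusted p = 0.719). Guca2b differed by −0.35 from Wistar in GK-Sham-PF rats (adjusted p = 0.1326). The scaffold genes Slc9a3r1 and Pdzk1, whose proteins hold NHE3 and CFTR at the brush border, differed by −0.12 (adjusted p = 0.6935) and 0.06 (adjusted p = 0.8883). Slc5a1, the sodium-glucose cotransporter, differed by −0.03 (adjusted p = 0.9555). A missed threshold does not show that levels were equal.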

How the data were processed

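RNA of 15 male rats was measured on 1-colour Agilent whole rat genome arrays, 5 rats per group, and groups were taken from the sample titles. The authors deposited, for each array, the intensity of each spot as Agilent Feature Extraction 10.7 gave it, the processed signal (background subtracted, not normalized between arrays) beside the mean signal and local background. They also deposited log2 values that were quantile-normalized in GeneSpring, which served here as an alternative. No counts exist, so the number of arrays limits the precision; the median SE of a log2 difference was 0.16.

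Control spots and 52 to 109 outlier spots per array were left out of 45018, no spot was saturated, and spots of a probe were averaged. Log2 processed signals were quantile-normalized with limma 3.58.1 (R 4.3.3, with version 1.17.8 of data.table; figures with matplotlib 3.10.9). Tests took in the 27891 of 41012 probes that the scanner software marked as well above background throughout at least 1 group. A single limma fit of all 15 arrays without covariates gave the 3 contrasts between groups (lmFit, then contrasts.fit and eBayes), and p-values were Benjamini-Hochberg adjusted across these probes at 0.05. The procedure was run on simulated data with independent noise for every probe and array. That simulation held no slide effect and no dim arrays, so it does not bear on either. Present gene symbols came from RefSeq names, through the accession for 17541 probes, the symbol for 3100 and a synonym for 540; 1322 kept the file's name.

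The members and the lists were chosen with earlier results of these data known. All member probes are named. Of the wider list, genes with a called probe whose groups did not overlap are named (at most 4 per role and pair). Scnn1b, P2ry4 and the uncalled genes of the closing paragraph were chosen after their values were seen. A gene of the wider list is counted but not reported singly here. Alternatives were scaling to the 75th percentile, normexp background correction (offset 50), the deposited log2 values, other probe filters, kept outlier spots, 1 probe per gene, the methods' comparison, slide as a fixed or random block, the replicate number as a block, only the compared groups, and leaving out the dim arrays or each array in turn. Replicate numbers did not pair the rats: correlations of same-numbered deviations ran from −0.277 to 0.189. Nothing states how RNA was split between slides.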

Additional observations from a re-analysis of the deposited data

Results flagged for a closer look

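Of the 33 sets of 5 arrays formed by the 11 probes and 3 groups, 5 held an array whose gap to its nearest neighbour exceeded the 95% critical value of Dixon's ratio (0.71), where chance gives about 1.65 of 33. In 4 of the 5 that array was a dim one. Slc9a3 read 7.972 on Wistar replicate 3 against 9.66 to 9.95 on the other Wistar arrays (ratio 0.852) and 8.178 on GK-Sham-PF replicate 5 against 9.64 to 10.09 (ratio 0.764). Slc26a3 read 10.21 on GK-Sham-PF replicate 5 against 10.90 to 11.09 (ratio 0.783). Slc12a2 probe A_44_P163408 read 9.508 on Wistar replicate 3 against 8.90 to 9.02 (ratio 0.793). The remaining array was Wistar replicate 2, where Slc9a2 read 14.24 against 13.58 to 13.73 (ratio 0.783) and whose 75th percentile of signal, 329.08, was not among the dim ones.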

How the results depend on the processing

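Over 32 settings, 943 of 1006 recomputed differences of the member probes kept their direction and, where tested, their side of the threshold. Differences within a slide were not tested and were judged by direction alone. No called difference changed sign, and 44 uncalled ones did (in 14 results, the largest of size 0.45 on all arrays). The number of called member probes for the bypass within the GK strain, 0 on all arrays, was 1 with named probes only, 1 with the brightest probe of each gene and 1 with slide as a random block (Slc9a2 each time, adjusted p = 0.0459 and 0.04536 for the first and last), and 2 by the methods' comparison and 2 without the dim arrays. Between GK-Sham-PF and Wistar it was 1 by the methods' comparison, and between GK-S-30 and Wistar, 1 on all arrays, it was 0 under a fixed slide block, 2 without the dim arrays and 2 with only the compared groups fitted. Counts of the wider list (6 within the GK strain, 4 for GK-Sham-PF against Wistar and 19 for GK-S-30 against Wistar) were 13, 9 and 20 by the methods' comparison, 2, 2 and 11 by that comparison adjusted over all probes, and 0, 1 and 1 under a fixed slide block. Of all 27891 tested probes, the methods' comparison called 13.9%, 13.5% and 26.5%. Its adjusted form called 763, 1384 and 4168 of them, and the fixed slide block 1.37%, 1.49% and 1.63%. For the bypass within the GK strain, 1424 of 17028 probes were called with named probes only and 1257 of 13023 with the brightest probe of each gene. The random slide block called 2016 of 27891 there. For GK-S-30 against Wistar, 5830 of 27891 were called with only the compared groups fitted. The causes of these changes in count were not tested. Leaving out each array in turn gave 0 to 1, 0 to 1 and 1 to 3 called member probes and 4 to 6, 2 to 6 and 14 to 21 of the wider list, in that order. Of all 27891 probes, 1203 to 2382, 1691 to 2414 and 5272 to 7039 were called. The arrays whose removal changed a member's call were Wistar replicates 2 (Slc9a2) and 3 (Slc26a3) and GK-Sham-PF replicates 4 (Slc9a2, −0.56, adjusted p = 0.0253, within the GK strain) and 5 (Slc26a3 and Slc12a2). With the replicate block, 0, 0 and 1 member probes and 5, 3 and 13 of the wider list were called, beside 1212, 1630 and 5179 of all 27891 probes. The pairing changed no other call of a member. Signal over background limited no member, as all 11 probes were well above it.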
